A study of Mus musculus with 2 samples.

Results

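The Cyp3a genes of mouse chromosome 5 encode cytochrome P450 enzymes, and their contacts were followed here in Foxa2 HiChIP libraries of liver. The 8 genes chosen by symbol were Cyp3a11, Cyp3a13, Cyp3a16, Cyp3a25, Cyp3a41a, Cyp3a44, Cyp3a57 and Cyp3a59, and all 8 were found in the gene table. Of these, 7 lie in a single array, and with the bins between them they fill 17 bins of 50 kb at chr5:145300001-146150000 (mm10), called the Cyp3a cluster below. Cyp3a13 lies alone in 2 bins at chr5:137850001-137950000, separated from the array by 7.37 Mb. Together they make 19 of the 52685 bins of chromosomes 1 to 19 and X, and 15 of the 19 overlap one of the 8 genes.

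The GW4064 group was 1 library from liver of wildtype mice gavaged once with GW4064, a drug-like compound that activates FXR, the nuclear receptor for bile acids. The vehicle group was 1 library from liver of wildtype mice gavaged with the propylene glycol and Tween 80 carrier that both groups received. Livers of both groups were taken 4 h after gavage, from about 200 mg of tissue, and the age, sex, strain and number of animals behind a library are not stated in the labels used here. HiChIP ligates DNA ends that lie close together in the nucleus and then enriches the ligated fragments with an antiserum, here one against Foxa2, so a contact count mixes proximity with recovery by Foxa2. Contacts carry no expression values, so the tissue could not be checked against marker genes. The title of the series asks how Foxa2 takes part in conformation changes when FXR is activated.

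CYP3A enzymes sit in the endoplasmic reticulum of hepatocytes and oxidise drugs, steroids and bile acids, with electrons supplied by P450 oxidoreductase and cytochrome b5. Their genes respond to the xenobiotic receptors PXR (Nr1i2) and CAR (Nr1i3), each paired with RXR, and Foxa factors are known regulators of liver P450 genes. Detoxified bile acids are among their products, which links the family to the bile acid receptor FXR (Nr1h4).

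The GW4064 library held 29003442 contacts and the vehicle library 22686004. Contacts that joined different chromosomes, counted among 1 to 19 and X, were 18.2% of all contacts in the GW4064 library and 22.1% in the vehicle library. Local contacts, meaning those of a bin with other bins of its chromosome up to 1 Mb away, had a median of 266 per bin in the GW4064 library and 188 in the vehicle library. With 1 library in each group there is no replicate check and no p-value, and every ratio compares these libraries rather than the treatments. Intervals are exact 95% intervals unless stated, and they cover counting error only. Ratios are log2 of GW4064 over vehicle after scaling to equal totals of the same class of contacts.

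Promoter sequences are shown first because the precipitated factor, Foxa2, binds a short forkhead motif that can be searched for in them. RefSeq (GRCm38.p6) held a promoter, running from 250 bases before the start to 50 after it, for all 8 genes and for Cyp3a41b, a near copy of Cyp3a41a in the array. Printed below are the promoters of Cyp3a11 (chr5:145879805-145880104), Cyp3a41a (chr5:145720087-145720386), Cyp3a25 (chr5:146009569-146009868) and Cyp3a13 (chr5:137921570-137921869), which stand for the promoter types found. All 4 are on the minus strand and are written 5′ to 3′ along the gene. Capitals mark matches on either strand to the Foxa core TGTTTAC, to the Hnf4a-type core CAAAGGTCA or to the nuclear receptor hexamer AGGTCA, whose letters also lie inside the Hnf4a-type core.
Cyp3a11: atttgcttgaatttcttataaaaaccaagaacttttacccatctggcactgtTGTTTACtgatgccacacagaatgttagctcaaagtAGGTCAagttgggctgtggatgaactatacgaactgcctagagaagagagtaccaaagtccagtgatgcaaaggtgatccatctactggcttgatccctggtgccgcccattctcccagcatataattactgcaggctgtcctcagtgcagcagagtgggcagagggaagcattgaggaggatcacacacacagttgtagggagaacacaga
Cyp3a41a: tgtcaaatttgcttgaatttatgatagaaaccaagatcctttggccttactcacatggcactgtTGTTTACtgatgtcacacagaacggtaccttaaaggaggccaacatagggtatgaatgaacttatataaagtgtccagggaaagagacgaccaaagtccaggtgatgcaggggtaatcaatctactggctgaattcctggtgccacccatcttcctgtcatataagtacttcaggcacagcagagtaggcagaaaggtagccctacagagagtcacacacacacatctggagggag
Cyp3a25: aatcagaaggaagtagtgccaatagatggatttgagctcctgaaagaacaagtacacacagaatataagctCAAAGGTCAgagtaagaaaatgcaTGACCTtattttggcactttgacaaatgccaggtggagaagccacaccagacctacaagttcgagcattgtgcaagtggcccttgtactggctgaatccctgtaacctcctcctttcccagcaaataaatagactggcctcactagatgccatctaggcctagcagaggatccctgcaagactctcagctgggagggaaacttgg
Cyp3a13: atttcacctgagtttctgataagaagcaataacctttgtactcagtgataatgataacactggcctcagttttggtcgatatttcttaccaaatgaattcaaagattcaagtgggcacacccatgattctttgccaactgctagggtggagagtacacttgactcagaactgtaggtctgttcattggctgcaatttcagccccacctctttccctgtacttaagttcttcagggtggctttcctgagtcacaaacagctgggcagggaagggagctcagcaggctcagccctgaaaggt

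The forkhead core TGTTTAC was in the promoters of 4 of the 8 genes, Cyp3a11, Cyp3a16, Cyp3a41a and Cyp3a44, and in that of Cyp3a41b. Among all 32851 promoters of the table, 3.65% held it. Its first base lay at position -198 in Cyp3a11, -190 in Cyp3a16, and -186 in Cyp3a41a, Cyp3a41b and Cyp3a44, counting the start base as 0. Cyp3a25, Cyp3a57 and Cyp3a59 had no match to it, and instead held CAAAGGTCA at -179, -177 and -180, a motif found in 0.478% of promoters. Each of these 3 promoters had 2 hexamers AGGTCA, of which 1 lay inside that core, while Cyp3a11 and Cyp3a44 had 1 each. The hexamer was in 16.3% of all promoters. Cyp3a13 matched none of these motifs, but its window lay inside the gene span, whose upstream end is at chr5:137925610. Only the first listed promoter of each gene was searched. The inverted repeat bound by FXR with RXR, which is 2 such hexamers facing each other with 1 base between them, was in 0 of the 8 promoters and in 0.00913% of all promoters. A match describes letters only, and a missing match says only that they are not in this window.

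Aligned end to end, the promoters of the array fell into the same sets. Cyp3a41a and Cyp3a41b were identical at 99.7% of aligned bases, Cyp3a16 and Cyp3a44 at 95.9%, and Cyp3a11 and Cyp3a16 at 82.2%. In the other set, Cyp3a25 and Cyp3a59 were identical at 96.3% and Cyp3a57 and Cyp3a59 at 92.6%. Across the sets identity was lower, from 64.0% for Cyp3a41b and Cyp3a57 to 68.5% for Cyp3a11 and Cyp3a57. Near-identical copies can share reads, and how reads with several matches were treated is not stated in the notes used here. Contacts at Cyp3a41a and Cyp3a41b are therefore uncertain at the level of the single gene.

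The array stood out from its surroundings as a block rich in local contacts. Its 17 bins had a median of 326 local contacts in the GW4064 library, range 208 to 553, against 290 in the vehicle library, range 140 to 459. The 40 bins on its left, 2 Mb in all, had medians of 179.5 in GW4064 and 158 in vehicle, and the 40 on its right had 206 in GW4064 and 174.5 in vehicle. Of the 17 array bins, 14 in the GW4064 library and 15 in the vehicle library were above their library's median bin. In the left flank 0 of 40 bins were above it in GW4064 and 7 in vehicle, and in the right flank 3 in GW4064 and 12 in vehicle. Among 48038 other windows of 17 bins, the mean level of the array lay at the 76.1 percentile in GW4064 and at the 98.4 percentile in vehicle.

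**Figure D1:**
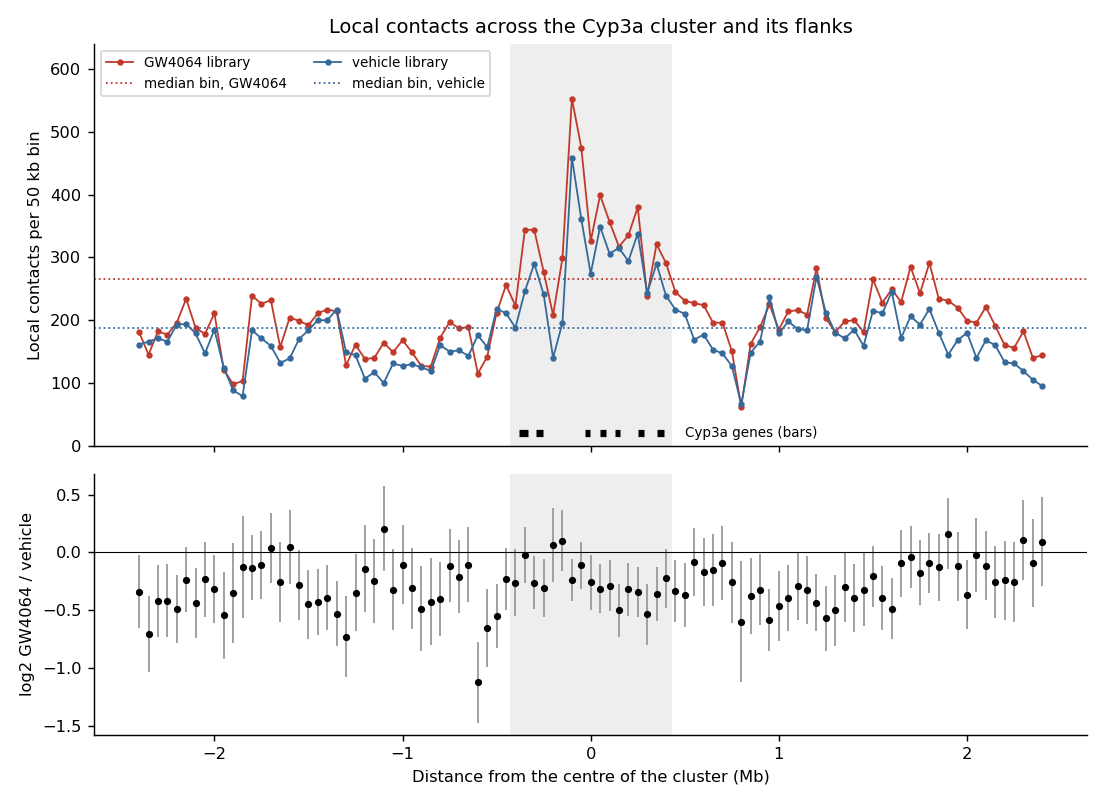
Upper panel: local contacts per 50 kb bin (y, raw counts) by distance from the centre of the Cyp3a cluster (x, Mb) in the GW4064 and vehicle libraries, with dotted lines at each library's median bin, grey shading over the cluster and black bars for its 7 genes. Lower panel: log2 ratio of GW4064 over vehicle with exact 95% intervals. The cluster reaches 553 contacts in GW4064 and 459 in vehicle in its highest bin, and 15 of its 17 ratios are below 0.

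The share of local contacts that fell on the cluster was lower in the GW4064 library. Local contacts summed to 5688 in the GW4064 library and 4769 in the vehicle library, a log2 ratio of -0.25 (-0.31 to -0.20). The ratio was below 0 in 15 of the 17 bins, against 47.2% of all tested bins, with a range of -0.53 to 0.10. Of the 17 intervals, 11 lay below 0 and 0 above, against 14.3% of all tested bins below and 10.2% above. Both flanks moved alike, with 7025 local contacts in GW4064 and 6225 in vehicle on the left (-0.33) and 8242 in GW4064 and 6924 in vehicle on the right (-0.26). The lower share was not particular to the array. Scaling moved its size: the libraries' totals differed by 0.51 on the log2 scale in local contacts but by 0.35 in all contacts, and scaled to all contacts the cluster's ratio was -0.10.

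Other classes of contact differed less. Contacts inside single bins of the cluster numbered 3018 in GW4064 and 2301 in vehicle, a log2 ratio of -0.077 (-0.16 to 0.0023). Contacts of the cluster with other chromosomes numbered 3985 in GW4064 and 3812 in vehicle, a log2 ratio of -0.01 (-0.07 to 0.06). All contacts of its bins numbered 17031 in GW4064 and 14772 in vehicle, a log2 ratio of -0.13.

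No bin of the array or of Cyp3a13 was past 1.5-fold. Across the genome 49090 bins reached a pooled count of 200 local contacts, and of them 3.19% were at least 1.5-fold lower in GW4064 and 0.226% at least 1.5-fold higher. Of the 19 Cyp3a bins, 0 were past that fold either way. In the flanks, 4 of 77 tested bins were lower and 0 higher. The lowest held Arpc1a, Arpc1b, Pdap1, Bud31 and Ptcd1, 600 kb left of the cluster's centre bin, with 115 local contacts in GW4064 and 176 in vehicle (log2 ratio -1.12, -1.48 to -0.78). Arpc1a and Arpc1b encode subunits of the actin-nucleating Arp2/3 complex. The next lowest bin held no gene, with 128 in GW4064 and 149 in vehicle (-0.73). The highest, also without a gene, had 164 in GW4064 and 100 in vehicle (0.20), and the second highest, at Flt1, a receptor for vascular endothelial growth factor, was at 0.16. The intervals of both of these higher bins included 0.

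Gene by gene, all 8 ratios were negative, and the genes are described in the order of their best-known roles. Cyp3a11, the major drug-oxidising CYP3A of adult mouse liver and a classic PXR target, had 317 local contacts in the GW4064 library and 315 in the vehicle library, in 1 bin. Its log2 ratio of -0.50 (-0.73 to -0.27) was the lowest of the 8: the raw counts were nearly equal although the GW4064 library was the deeper one. Cyp3a25, another liver-expressed member, had 619 in GW4064 and 581 in vehicle over 2 bins, a log2 ratio of -0.42 (-0.58 to -0.25). Cyp3a13, which is expressed in intestine as well as liver, had 470 in GW4064 and 427 in vehicle, a log2 ratio of -0.37 (-0.56 to -0.18). The intervals of these 3 genes overlap, so their order is not resolved at this depth.

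The neonatal and female-biased members lay in the left and middle parts of the array. Averaged over all bins that overlap each gene, Cyp3a41a and Cyp3a44 held the most local contacts per bin in both libraries. Cyp3a44, known for female-biased expression in mouse liver, had 756 local contacts in GW4064 and 655 in vehicle, a log2 ratio of -0.30 (-0.46 to -0.15). Cyp3a16, a fetal and neonatal form, had 621 in GW4064 and 531 in vehicle, a log2 ratio of -0.28 (-0.45 to -0.11). Cyp3a41a, a female-biased form, had 801 in GW4064 and 635 in vehicle, a log2 ratio of -0.17 (-0.33 to -0.02). Cyp3a59, at the right end of the array, had 612 in GW4064 and 529 in vehicle, a log2 ratio of -0.30 (-0.47 to -0.13). Cyp3a57, at the left end, was the single gene whose interval included 0, with 567 in GW4064 and 434 in vehicle and a log2 ratio of -0.12 (-0.31 to 0.06).

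In the whole genome 20512 protein-coding loci reached the minimum of 200 local contacts, and of these 41.8% had an interval below 0 and 5.86% one above 0. All 8 Cyp3a genes passed that minimum, and 7 had an interval below 0 and 0 above. The count of 7 depends on scaling to local contacts. Scaled to total contacts, the intervals of Cyp3a11, Cyp3a13 and Cyp3a25 stayed below 0. Those of Cyp3a16, Cyp3a41a, Cyp3a44, Cyp3a57 and Cyp3a59 then included 0. At the 1.5-fold threshold 0 of the 8 were called, against 11.6% of loci lower and 0.0634% higher. The median log2 ratio was -0.30 over the 8 genes and -0.17 over all loci. Because 7 of the genes are neighbours and share contacts with each other, they are not separate observations. In contacts inside single bins, 5 of the 8 ratios were negative and 3 positive, and 1 interval lay below 0, that of Cyp3a41a with 402 contacts in GW4064 and 346 in vehicle (log2 ratio -0.25, -0.46 to -0.04).

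Levels, unlike ratios, separated some of the genes. Per bin, Cyp3a41a was highest in the GW4064 library with 400.5 local contacts, followed by Cyp3a44 with 378, Cyp3a11 with 317, Cyp3a16 with 310.5, Cyp3a25 with 309.5, Cyp3a59 with 306, Cyp3a57 with 283.5 and Cyp3a13 with 235. In the vehicle library Cyp3a44 led with 327.5, followed by Cyp3a41a with 317.5, Cyp3a11 with 315, Cyp3a25 with 290.5, Cyp3a16 with 265.5, Cyp3a59 with 264.5, Cyp3a57 with 217 and Cyp3a13 with 213.5. Neighbours in both orders had overlapping counting intervals, except for the step between Cyp3a57 and Cyp3a13 in the GW4064 library and that between Cyp3a59 and Cyp3a57 in the vehicle library. Both orders depend on where bin edges fall. In the bin of the gene middle alone, Cyp3a44 had 399 in GW4064 and 349 in vehicle, and Cyp3a25 380 in GW4064 and 338 in vehicle. Counted that way, Cyp3a57 had 344 in GW4064 and 246 in vehicle, and Cyp3a41a 326 in GW4064 and 274 in vehicle. Cyp3a13, outside the array, was at the 56.5 percentile of loci in the GW4064 library and Cyp3a41a at the 97.2 percentile.

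**Figure D2:**
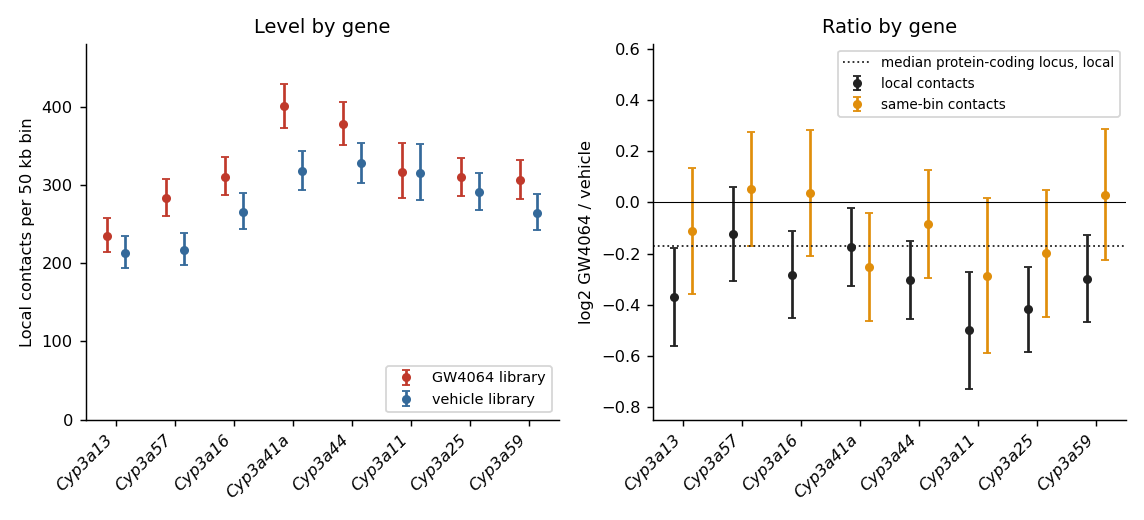
Left: local contacts per 50 kb bin (y) of the 8 Cyp3a genes (x, in chromosomal order) in the GW4064 and vehicle libraries, with exact Poisson 95% intervals. Right: log2 ratio of GW4064 over vehicle for local and same-bin contacts with exact 95% intervals, and a dotted line at -0.17, the median protein-coding locus. All 8 local ratios are below 0, from -0.50 at Cyp3a11 to -0.12 at Cyp3a57.

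Contacts between different bins of the array were more frequent than distance alone gives. There were 2427 such contacts in the GW4064 library and 1974 in the vehicle library over 136 bin pairs. That is 1.59 times (1.53 to 1.66) the number expected from the genome-wide mean at the same distances in GW4064, and 1.84 times (1.76 to 1.93) in vehicle. The local contacts of each bin contain these same contacts. Once these local contacts were also taken into account, the values were 1.05 times in GW4064 (1.01 to 1.09) and 0.831 times in vehicle (0.795 to 0.869). With contacts between chromosomes taken into account instead, a setting chosen after seeing the data, they were 1.25 times in GW4064 and 1.40 times in vehicle. Under that setting the intervals of both libraries lay above the expected number. The size of the enrichment thus depends on the scaling, and in vehicle it was lost when local contacts were taken into account. On the scale of distance alone, the array lay at the 97.3 percentile in GW4064 and at the 99.9 percentile in vehicle. These percentiles are against 48038 other windows of 17 bins, whose median was 1.06 in both libraries. Contacts with both 2 Mb flanks together were fewer than expected in both libraries. They numbered 1366 in GW4064 and 1395 in vehicle, which is 0.610 times the expected number in GW4064 (0.578 to 0.643) and 0.863 times in vehicle (0.819 to 0.910).

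The left flank was the poorer partner. It gave 522 contacts with the array in GW4064 and 528 in vehicle, at 0.466 times the expected number in GW4064 and 0.654 times in vehicle. The right flank gave 844 contacts in GW4064 and 867 in vehicle, at 0.754 times the expected number in GW4064 and 1.07 times in vehicle (1.00 to 1.15). By distance alone, this was the one side and library not below the expected number. With the local contacts of each bin taken into account, it was below, at 0.765 times (0.715 to 0.818). With contacts between chromosomes taken into account instead, it was at 1.04 times (0.973 to 1.11).

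**Figure D3:**
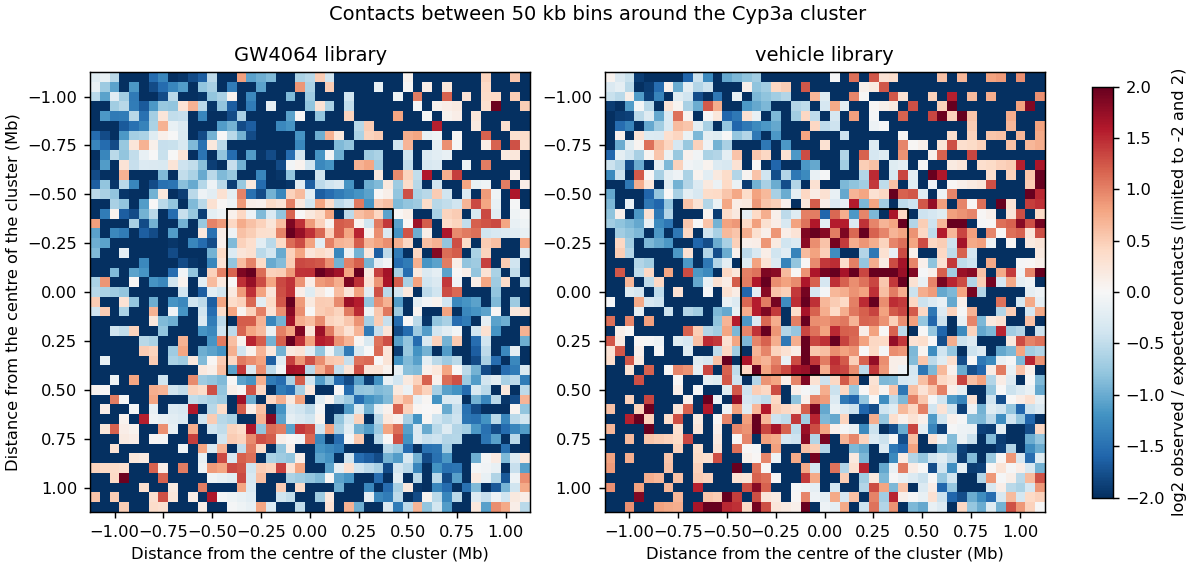
Contacts between 50 kb bins (both axes, distance from the centre of the Cyp3a cluster in Mb) as log2 of observed over expected at the same distance, GW4064 library left and vehicle library right, with the cluster boxed. Values are limited to -2 and 2, and bin pairs with no contact take the darkest blue. Inside the box the observed number is 1.59 times the expected one in GW4064 and 1.84 times in vehicle.

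Set against the expected number at each distance, both kinds of contact were lower in GW4064. The log2 ratio was -0.21 (-0.30 to -0.13) inside the array and -0.50 (-0.61 to -0.39) with the flanks. Among the other windows the inside ratio was at the 16.4 percentile, within the range of most windows (5th to 95th percentile -0.41 to 0.23), and the flank ratio at the 3.98 percentile. Both directions depend on the scaling: when the local contacts of each bin were also taken into account, they turned to 0.34 inside and 0.11 with the flanks. That setting divides by totals that contain these same contacts. Taking account of each bin's contacts with other chromosomes instead kept both directions, at -0.17 inside and -0.38 with the flanks.

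The balance between the 2 kinds of contact kept its direction under each scaling tried. Observed over expected contacts inside the array were 2.61 times those with the flanks in the GW4064 library and 2.13 times in the vehicle library, a log2 ratio of 0.29 (0.15 to 0.43, normal approximation). Over the other windows this log2 ratio had a median of 0.02, and the array lay at the 98.8 percentile. It was 0.23 with the local contacts of each bin and 0.21 with contacts between chromosomes taken into account.

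On the scale of distance alone, enrichment inside the array grew with distance up to 150 kb and was lower in GW4064 at every distance. Neighbouring bins, 50 kb apart, had 910 contacts in GW4064 and 720 in vehicle, at 1.35 times the expected number in GW4064 and 1.48 times in vehicle. At 150 kb the values were 2.04 times in GW4064 and 2.45 times in vehicle. For bins 600 to 800 kb apart, close to the full length of the array, 52 contacts in GW4064 and 53 in vehicle gave 1.34 times the expected number in GW4064 and 1.92 times in vehicle. The interval of the log2 ratio was below 0 at 100 kb, 150 kb, 250 to 300 kb and 450 to 550 kb, and included 0 at the other 4 distances.

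**Figure D4:**
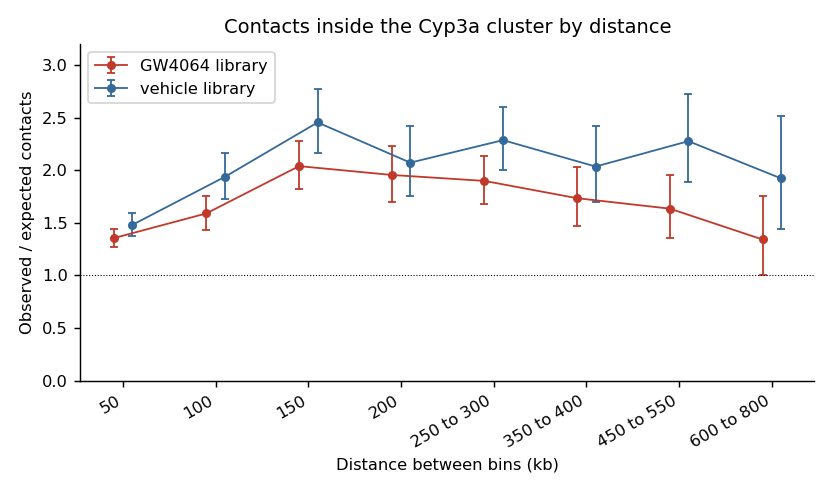
Observed over expected contacts (y) between bins of the Cyp3a cluster by the distance between the bins (x, kb) in the GW4064 and vehicle libraries, with exact Poisson 95% intervals and a dotted line at 1. Both libraries are highest at 150 kb, at 2.04 in GW4064 and 2.45 in vehicle.

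By distance alone, a single bin without a protein-coding gene was the strongest partner of the rest of the array. It lies at chr5:145600001-145650000, between Cyp3a41b and Cyp3a41a, and the gene table places the pseudogenes Cyp3a63-ps and Selenok-ps7 there. It had 553 local contacts in the GW4064 library and 459 in the vehicle library. With the other array bins it made 509 contacts in GW4064 and 404 in vehicle, at 2.58 times the expected number in GW4064 (2.36 to 2.82) and 2.93 times in vehicle (2.65 to 3.23). With the local contacts of each bin taken into account it was at 1.04 times in GW4064 and 0.869 times in vehicle. Its strongest pair over both libraries pooled was with the bin of Cyp3a44 150 kb away, with 57 contacts in GW4064 and 53 in vehicle, at 5.16 times the expected number in GW4064 and 7.09 times in vehicle. Next came its pair with a Cyp3a25 bin 350 kb away, with 27 contacts in GW4064 and 17 in vehicle, at 5.44 times in GW4064, the higher of the 2 pairs there, and 4.96 times in vehicle. It also had pairs with the Cyp3a11 bin, 22 contacts in GW4064 and 24 in vehicle, and with a Cyp3a16 bin, 35 in GW4064 and 21 in vehicle.

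This bin and its right neighbour, which holds the end of Cyp3a41a, also had the most contacts of any kind in the array. The bin counted 1532 contacts in GW4064 and 1358 in vehicle, and its neighbour 1593 in GW4064 and 1402 in vehicle, against array medians of 944 in GW4064 and 823 in vehicle. Without the 4 bins from Cyp3a41b to Cyp3a41a, contacts inside the array were 1.40 times the expected number in GW4064 and 1.70 times in vehicle. The bin of the pseudogene Cyp3a58-ps, 2 bins to the left, was the one array bin below its expected number by distance alone, at 0.903 times in GW4064 and 0.831 times in vehicle. The Cyp3a41b bin had the fewest contacts inside a single bin of the array, 81 in GW4064 and 62 in vehicle. The part of shared sequence in these levels was not tested.

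Across the 17 bins, 14 had a lower ratio of observed to expected contacts with the rest of the array in GW4064, and 6 of the 17 intervals lay below 0 and 0 above. Each contact counts for both of its bins, so the 17 are not separate observations. The inside ratio of the array as a whole lay at the 16.4 percentile of other windows, within the range of most. The count of lower bins also depends on the scaling: with the local contacts of each bin taken into account, 0 of the 17 were lower and 17 higher. The Cyp3a11 bin was the lowest, with 285 contacts in GW4064 and 279 in vehicle, at 1.47 times the expected number in GW4064 and 2.05 times in vehicle (log2 ratio -0.48, -0.73 to -0.24). The right bin of Cyp3a25 was alike, with 206 in GW4064 and 202 in vehicle (log2 ratio -0.48, -0.76 to -0.19). The 3 bins with a higher ratio in GW4064 were a Cyp3a57 bin (0.07), the Cyp3a58-ps bin (0.12) and the Cyp3a41b bin (0.17), and their intervals included 0.

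Between the genes of the array, nearly every pair was above the number expected from distance alone. Of 21 gene pairs, 21 in the GW4064 library and 20 in the vehicle library were above 1, with the interval above 1 for 14 in GW4064 and 17 in vehicle. The same counts were not taken for gene pairs elsewhere in the genome. The median was 1.61 in GW4064 and 2.06 in vehicle. With the local contacts of each bin taken into account, 14 pairs in GW4064 and 7 in vehicle were above 1. Cyp3a16 and Cyp3a41a formed the most enriched pair in GW4064, with 72 contacts in GW4064 and 51 in vehicle, at 2.57 times the expected number in GW4064 and 2.66 times in vehicle. Cyp3a25 and Cyp3a59, neighbours at the right end, had 172 contacts in GW4064 and 135 in vehicle, at 2.02 times in GW4064 and 2.26 times in vehicle.

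By distance alone, 16 of the 21 pairs were lower in GW4064 and 5 higher, in an array whose inside contacts as a whole were at -0.21. With the local contacts of each bin taken into account the count turned, with 3 pairs lower and 18 higher. By distance alone, 3 intervals lay below 0 and 0 above, a count without a share over other gene pairs of the genome beside it. These 3 pairs all include the same Cyp3a44 bins, so they are not separate observations. Cyp3a16 with Cyp3a44 had 32 contacts in GW4064 and 42 in vehicle (log2 ratio -0.93, -1.64 to -0.23). Of these, 5 in GW4064 and 15 in vehicle came from 1 of its 4 bin pairs. Cyp3a57 with Cyp3a44 had 21 in GW4064 and 27 in vehicle (-0.89, -1.78 to -0.01), and Cyp3a41a with Cyp3a44 had 114 in GW4064 and 113 in vehicle (-0.50, -0.89 to -0.11). Under the other scaling Cyp3a41a with Cyp3a44 turned, at 0.712 times the expected number in GW4064 and 0.689 times in vehicle. The highest ratio, 0.91 for Cyp3a57 with Cyp3a11, rested on 8 contacts in GW4064 and 3 in vehicle, and its interval ran from -1.15 to 3.46.

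Single bin pairs were sparser. Across the genome 89083 bin pairs, separated by 100 kb to 2 Mb, reached a pooled count of 20, and of them 4.36% were at least 2-fold lower in GW4064 and 7.17% at least 2-fold higher. Inside the array 52 pairs reached 20 contacts, of which 4 were lower and 0 higher, and of 4 such pairs with the flanks 0 were called. The median log2 ratio was -0.23 for the 52 pairs and 0.03 for all pairs. The lowest joined Cyp3a16 with Cyp3a44, 300 kb apart, with 5 contacts in GW4064 and 15 in vehicle (log2 ratio -2.13, -3.94 to -0.60).

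The other called pairs lay in the right part of the array or reached across it. A bin without a gene right of Cyp3a11 and a Cyp3a59 bin had 8 contacts in GW4064 and 17 in vehicle (-1.65). Cyp3a11 and a Cyp3a25 bin had 7 in GW4064 and 14 in vehicle (-1.56). The bin of Cyp3a63-ps with a Cyp3a59 bin had 10 in GW4064 and 14 in vehicle (-1.01), and its interval included 0 (-2.34 to 0.27). The fifth lowest pair, Cyp3a57 with Cyp3a16, had 15 in GW4064 and 18 in vehicle (-0.82, -1.91 to 0.25). The 5 highest pairs reached no more than 0.77 on the log2 scale, a value shared by Cyp3a41a with the bin right of Cyp3a11 and by Cyp3a57 with the Cyp3a63-ps bin, each with 25 contacts in GW4064 and 10 in vehicle. The other 3 joined Cyp3a16 bins with Cyp3a41b, at 22 in GW4064 and 9 in vehicle (0.73) and 21 in GW4064 and 9 in vehicle (0.67), and with Cyp3a41a, at 21 in GW4064 and 11 in vehicle (0.38). The intervals of these 5 included 0.

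The 4 flank pairs joined the left end of the array to zinc finger genes. Zscan25 with Cyp3a57 had 29 contacts in GW4064 and 20 in vehicle (-0.02), and Zscan25 with Cyp3a16 had 12 in GW4064 and 11 in vehicle (-0.44). The bin of Zkscan14, Zkscan5 and Zfp655 had 22 in GW4064 and 13 in vehicle with one Cyp3a57 bin (0.20), and 14 in each library with the other (-0.55). The 4 intervals included 0.

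Contacts across a bin, between the 500 kb on its left and the 500 kb on its right, were used to place the array's borders. The insulation score is log2 of these contacts over the mean of chromosome 5, so a low score marks a place that few contacts cross. Over the array it averaged 0.22 in GW4064 and 0.58 in vehicle, against -0.67 in GW4064 and -0.30 in vehicle in the left flank and -0.37 in GW4064 and -0.10 in vehicle in the right flank. Its highest point was the same in both libraries, a Cyp3a41a bin, with 645 crossing contacts in GW4064 and 580 in vehicle and scores of 0.83 in GW4064 and 1.18 in vehicle. Within the array it was lowest at its left end, at Cyp3a57, at -0.72 in GW4064 and -0.41 in vehicle.

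Both flanks went lower still. The lowest score of the left flank was -1.50 in GW4064, at Arpc1a, and -0.84 in vehicle, at Zkscan14, Zkscan5 and Zfp655, and that of the right flank was -1.21 in GW4064, at Gpr12, and -0.88 in vehicle, at Mtus2. Contacts across the left edge of the array numbered 282 in GW4064 and 249 in vehicle, at 0.607 times the expected number in GW4064 and 0.769 times in vehicle (log2 ratio -0.34, -0.59 to -0.09). Across the right edge there were 304 in GW4064 and 283 in vehicle, at 0.654 times in GW4064 and 0.874 times in vehicle (-0.42, -0.66 to -0.18), and across the middle 799 in GW4064 and 685 in vehicle, at 1.72 times in GW4064 and 2.12 times in vehicle (-0.30, -0.45 to -0.15). These 3 intervals overlap.

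**Figure D5:**
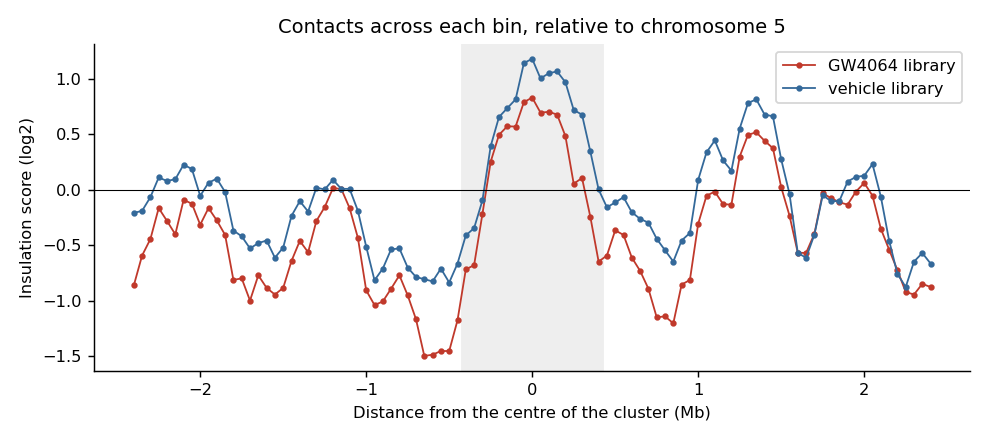
Insulation score (y, log2 of contacts across a bin within 500 kb over the mean of chromosome 5) by distance from the centre of the Cyp3a cluster (x, Mb) in the GW4064 and vehicle libraries, with the cluster shaded. The score peaks in the cluster at 0.83 in GW4064 and 1.18 in vehicle.

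Contacts between Cyp3a13 and the array were few. Its 2 bins made 2 contacts with the 17 array bins in the GW4064 library and 7 in the vehicle library, where 7.32 were expected in GW4064 and 5.93 in vehicle. The log2 ratio of -2.11 had an interval from -5.42 to 0.28, so a difference between the libraries was not detectable at this depth.

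Other drug metabolism genes leaned to lower values in GW4064 as well. All 32 genes of a list chosen with earlier results known were matched and reached 200 local contacts, and 6 were at least 1.5-fold lower in GW4064 and 0 at least 1.5-fold higher, against 11.6% and 0.0634% of all loci. Their intervals lay below 0 for 24 genes and included 0 for 8, against 41.8% of all loci below 0, and the median log2 ratio was -0.42, against -0.30 for the Cyp3a genes and -0.17 for all loci. Among the regulators, Rxra, the partner receptor of PXR, CAR and FXR, was lowest, with 309 local contacts in GW4064 and 421 in vehicle (-0.96, -1.17 to -0.74). Hnf4a had 264 in GW4064 and 284 in vehicle (-0.61), Nr1i3 231 in GW4064 and 226 in vehicle (-0.48), Foxa2 itself 213 in GW4064 and 204 in vehicle (-0.45), and Nr1h4 608 in GW4064 and 539 in vehicle (-0.34). Nr1i2, encoding PXR, had 543 in GW4064 and 429 in vehicle (-0.17, -0.35 to 0.02).

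The electron donors of the CYP3A enzymes differed from each other. Por, encoding P450 oxidoreductase, had 321 local contacts in GW4064 and 361 in vehicle (-0.68, -0.90 to -0.46), and Cyb5a, encoding cytochrome b5, had 210 in GW4064 and 151 in vehicle (-0.03, -0.34 to 0.28). Among the listed genes other than these regulators and donors, Gstp1, a glutathione transferase (-0.90), and Abcc3, a basolateral efflux pump (-0.66), were lowest. Sult2a1, a bile acid and steroid sulfotransferase (0.07), and Ahr, the receptor for dioxin-like ligands (0.04), were highest, with intervals that included 0.

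The loci on other chromosomes whose level lay nearest to the mean array bin in both libraries were Kbtbd4 and Ptpmt1, which share a bin on chromosome 2, and Larp4 on chromosome 15. Likeness was the distance in log2 local contacts per bin over the 2 libraries. The Kbtbd4 and Ptpmt1 bin had 335 local contacts in GW4064 and 280 in vehicle, and Larp4 had 333.5 per bin in GW4064 and 282 in vehicle.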

How the data were processed

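The authors deposited, for each library, a matrix of raw contact counts between 50 kb bins (upper triangle and diagonal) and a table of bins, whose bin number is an index and no other measurement. The submitters' processing notes name HiC-Pro, Bowtie2 2.2.9 and mm10; read filters and duplicate handling are not stated there. The deposited counts are whole numbers and were used as they stand.

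The members, lists, motifs and rules were chosen with earlier results of these data known. Chromosomes 1 to 19 and X were used, with gene spans from RefSeq GRCm38.p6. A gene is every bin that overlaps its span. Ratios have exact conditional binomial 95% intervals and counts exact Poisson ones, which cover counting error only. Expected contacts are the genome mean at the same distance in the same library. Named are all 8 genes, other genes in cluster bins, the 2 highest and 2 lowest flank bins, the 5 bin pairs at either end among those with a pooled count of 20 or more, the fixed regulators and electron donors, the 2 highest and 2 lowest other listed genes, and the 3 most alike loci. Groups were the GW4064 library and the vehicle library, with no test. The Cyp3a63-ps bin, the Cyp3a41b to Cyp3a41a bins, the strongest pairs, the ratio of contacts inside to contacts with flanks and the contacts with other P450 clusters were singled out after their values were seen. Alternatives changed the contact class, scaling, expected number, thresholds and depth. Scripts ran in Python 3.11.15 with biopython 1.88, matplotlib 3.10.9, scipy 1.17.1, pandas 2.3.3 and numpy 2.4.6, and were tested on simulated counts.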

Additional observations from a re-analysis of the deposited data

How the results depend on the processing

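No paired analysis was possible because each group holds 1 library, and for the same reason no replicate could be left out. Of 104 alternative ratios, 95 kept their sign and 83 of these also stayed inside the interval reported; 9 changed sign, and all 9 are given here. The log2 ratio of local contacts of the cluster was -0.13 with all contacts, -0.077 with same-bin contacts and -0.10 scaled to total contacts. With the local contacts of both bins taken into account, contacts inside the cluster turned to 0.34, contacts with both flanks to 0.11, with the left flank to 0.14 and with the right flank to 0.089. With contacts between chromosomes taken into account, a setting chosen after seeing the data, contacts with the flanks were -0.38. Same-bin contacts of the cluster were 0.037 scaled to total contacts. In same-bin contacts alone Cyp3a57 was at 0.053, Cyp3a16 at 0.036 and Cyp3a59 at 0.030, and scaled to total contacts Cyp3a57 was at 0.031. Bin pairs past 2-fold numbered 28 of 123 with at least 10 contacts (23 lower and 5 higher in GW4064, against 9.35% and 12.5% of all pairs) and 0 of 12 with at least 50, in place of 4 of 56. Fewer pairs reach the higher minimum; for the other shifts the cause was not tested. Contacts inside over contacts with flanks ranged from 0.21 to 0.33 over 6 alternatives, all chosen after seeing the data. With the local contacts of both bins taken into account, a setting added for these counts after seeing the data, 3 of 21 gene pairs were lower in GW4064 in place of 16, and 0 of 17 bins in place of 14. At this depth single bin pairs and the contacts of Cyp3a13 with the cluster have wide intervals.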

Other observations

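Contacts of the Cyp3a array with other chromosomes were many at a pair of other P450 gene clusters, a pattern looked for after the data were seen. With the Cyp2c cluster (chr19:39000001-40200000, 14 genes, drug and fatty acid oxidising enzymes) there were 23 contacts in the GW4064 library and 34 in the vehicle library. These were 8.11 times (5.14 to 12.2) the number expected from each bin's contacts between chromosomes in GW4064 and 14.3 times (9.92 to 20.0) in vehicle. With the run of Cyp2a, Cyp2b, Cyp2f and related genes (chr7:25800001-27200000, 13 genes) there were 22 in GW4064 and 32 in vehicle, at 8.20 times (5.14 to 12.4) in GW4064 and 12.5 times (8.52 to 17.6) in vehicle.

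Among 2707 windows of 17 bins on other chromosomes, the median was 0.734 in GW4064 and 0.733 in vehicle, and the 95th percentile 3.12 in GW4064 and 3.07 in vehicle. A window of 8 Cyp2c genes (chr19:39100001-39950000) ranked 5 in GW4064 and 1 in vehicle, and a window that holds Cyp2b19, Cyp2a5 and Cyp2f2 (chr7:26350001-27200000) ranked 2 in both libraries. The other windows with genes of these clusters ranked lower in GW4064. That of Cyp2b10 (chr7:25500001-26350000) ranked 188 in GW4064, with 4 contacts at 2.78 times, and 3 in vehicle, with 14 at 9.85 times. That of Cyp2c37 (chr19:39950001-40800000) ranked 11 in GW4064 and 5 in vehicle. That of Cyp2c55 (chr19:38250001-39100000) ranked 93 in GW4064 and 4 in vehicle. The window that ranked 1 in GW4064, with 21 contacts in GW4064 and 8 in vehicle, held Slc22a19 and other organic anion transporter genes of chromosome 19, and it ranked 34 in vehicle. Other windows of chromosome 19 without a P450 gene also ranked above the Cyp2c window in GW4064. The window of Habp2 (chr19:56100001-56950000) ranked 3 in GW4064 and 92 in vehicle. That of Scd1 (chr19:44200001-45050000) ranked 4 in GW4064 and 6 in vehicle. Chromosome 19 as a whole was at 2.41 times the expected number in GW4064 and 2.09 times in vehicle, and chromosome 7 at 1.16 times in GW4064 and 1.29 times in vehicle.

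The contacts were spread over the array and not held by a few bin pairs: those with Cyp2c touched 15 of its 17 bins in GW4064 and 12 in vehicle, with at most 1 contact a bin pair in GW4064 and 2 in vehicle. Without the 2 array bins with most contacts, the values for Cyp2c were 7.77 times in GW4064 and 13.7 times in vehicle, and those for the chromosome 7 run 9.58 times in GW4064 and 13.6 times in vehicle. The other P450 clusters are too small to compare: Cyp4a had 1 contact in GW4064 and 1 in vehicle (0.821 expected in GW4064 and 0.789 in vehicle), and Cyp4f 2 in GW4064 and 1 in vehicle (0.929 expected in GW4064 and 0.938 in vehicle). Cyp2j had 0 in GW4064 and 1 in vehicle (1.29 expected in GW4064 and 1.21 in vehicle), and Cyp2d 0 in GW4064 and 2 in vehicle (0.730 expected in GW4064 and 0.748 in vehicle). The log2 ratio of GW4064 over vehicle was -0.82 (-1.65 to -0.01) for Cyp2c, whose interval without those 2 bins ran from -1.77 to 0.11, and -0.60 (-1.46 to 0.23) for the chromosome 7 run. Whether sequence shared between P450 genes brings misplaced reads into these counts was not tested.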
